A study of Mus musculus with 12 samples.

Results

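The complement genes described here were 9 genes chosen by name: the C1q subunit genes C1qa, C1qb and C1qc, the components C2, C3 and C4b, complement factor B (Cfb), and the receptors C3ar1 and C5ar1. Each had exactly 1 probe, and they made up 9 of 18138 genes, read by 25697 probes, in RNA from epididymal fat, the visceral fat pad beside the testis, on an Illumina mouse bead array. The 12 arrays fell into 4 groups: male Siah2 knockout C57BL/6J mice on a high fat diet with 45% fat, male Siah2 knockout mice on a low fat diet with 10% fat, and wild type male C57BL/6J mice on each of these diets. Siah2 encodes a ubiquitin ligase, which marks other proteins for breakdown, and the labels describe a knockout in the whole animal, so no single cell type of the fat was targeted. All mice ate their diet from 4 weeks of age until they were 20 weeks old. Each group gave 3 arrays, and each array held RNA pooled over several animals: 8 animals in the high fat knockout group and 10 in each other group. A pool averages its animals, and p-values here measure only the spread between pools.

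Complement is a cascade of plasma proteins that tags and lyses targets. In the classical pathway C1q, built of the A, B and C chains, recognises bound antibody, and C4 and C2 then form an enzyme that cuts C3. In the alternative pathway factor B joins a C3 fragment and is cut by factor D, which is adipsin, a protein known for its secretion by fat cells. C3ar1 and C5ar1 are the receptors for the small fragments C3a and C5a. Liver makes most circulating C3, C4 and factor B, fat also makes these proteins, and C1q comes mainly from macrophages and dendritic cells.

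RefSeq promoter sequences (build GRCm38.p6, from 250 bases before to 50 after the annotated start, minus strand for all those shown) were on hand for 5 of the 9 genes. C1qb, C1qc and C1qa are neighbours in the annotation, as are Cfb and C2. The promoters of C1qb and C1qc are shown because these neighbouring genes moved together across the arrays, and that of C3 because C3 is where the pathways join. Capitals mark the letters GAGGAA, the ETS core bound by the myeloid factor PU.1 (either strand), in C1qb and C1qc, and TTNNGNAA, a C/EBP motif (either strand), in C3.
C1qb, chr4:136886151-136886450: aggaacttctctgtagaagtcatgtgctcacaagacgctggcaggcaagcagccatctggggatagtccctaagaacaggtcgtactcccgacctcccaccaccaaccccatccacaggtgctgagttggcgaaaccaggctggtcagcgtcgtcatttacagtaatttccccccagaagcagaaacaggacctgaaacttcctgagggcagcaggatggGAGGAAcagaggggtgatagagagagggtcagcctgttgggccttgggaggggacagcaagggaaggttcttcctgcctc
C1qc, chr4:136892865-136893164: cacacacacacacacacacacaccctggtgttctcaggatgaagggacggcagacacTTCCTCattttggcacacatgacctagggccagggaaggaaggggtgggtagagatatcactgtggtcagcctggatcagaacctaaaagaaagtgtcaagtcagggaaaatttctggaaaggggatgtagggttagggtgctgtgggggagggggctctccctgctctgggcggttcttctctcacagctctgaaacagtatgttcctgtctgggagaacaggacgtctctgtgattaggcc
C3, chr17:57228087-57228386: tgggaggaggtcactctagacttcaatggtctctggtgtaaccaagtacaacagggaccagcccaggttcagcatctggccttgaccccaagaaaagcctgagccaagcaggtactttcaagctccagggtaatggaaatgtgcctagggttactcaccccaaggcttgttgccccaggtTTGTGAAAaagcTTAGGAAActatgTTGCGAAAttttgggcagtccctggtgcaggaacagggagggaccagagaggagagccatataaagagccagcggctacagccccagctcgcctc
The ETS core began 30 bases before the annotated start in C1qb (position -30) and at position -193 in C1qc, there as its reverse complement TTCCTC. C3 held 3 matches to the C/EBP motif, at -70, -58 and -45, which did not overlap. These motifs are short: GAGGAA was found in 28.3% of 32851 promoters of this length and TTNNGNAA in 40.7%, and C1qc also held 1 match to the latter, at -81 and left in lower case. A match describes letters only. Neither TTCNNNGAA, a STAT motif found in 8.30% of promoters, nor the interferon response motif ISRE, found in 3.44%, was in the windows shown.

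The authors' values are normalized intensities in arbitrary units. A value of 27.9 served as an approximate floor of detection, and the arrays detected 13389 to 15037 probes. The Siah2 probe averaged 0.37 lower in knockout than in wild type fat on the log2 scale over both diets (SE 0.11, limma adjusted p = 0.0795). Its intensity was 55.3, 68.2 and 45.0 in knockout fat on high fat, 101.9, 62.2 and 63.4 in knockout fat on low fat, 111.3, 78.6 and 89.0 in wild type fat on high fat, and 102.1, 121.1 and 91.6 in wild type fat on low fat. The first array labelled knockout on low fat thus lay within the wild type range, and no source used here places the probe inside or outside the deleted sequence. Fat was well represented: the 11 adipocyte markers summed to between 103132 and 153091 on every array, with adiponectin (Adipoq), the fat cell hormone, between 24973 and 37111. Some arrays also carried RNA of neighbouring organs. The 12 epididymis genes that passed the detection filter summed to between 154 and 51158 in knockout fat on high fat, where replicate 2 held the highest value, to between 6296 and 73486 in knockout fat on low fat, to between 436 and 811 in wild type fat on high fat, and to between 101297 and 169369 in wild type fat on low fat. Seminal vesicle genes summed to between 27.1 and 54.4 in knockout fat on high fat, 5004 and 6588 in knockout fat on low fat, 16.7 and 83.3 in wild type fat on high fat, and 57167 and 204714 in wild type fat on low fat. Diet and the RNA of both organs therefore varied together in wild type fat, and there they cannot be told apart by a fit over these arrays. In knockout fat the epididymis sums of the diets overlapped, but the seminal vesicle sums did not. Diet and seminal vesicle RNA thus cannot be told apart in knockout fat either. In tissue RNA, more cells of a type and more RNA per cell cannot be told apart either.

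The 3 C1q genes were higher on the high fat diet in both genotypes. C1qa had 649, 658 and 678 intensity units in knockout fat on high fat, against 246, 382 and 229 on low fat, and 1092, 1006 and 1096 in wild type fat on high fat, against 212, 365 and 263 on low fat. Every high fat array thus lay above every low fat array of its genotype, and the low fat arrays of the genotypes overlapped. On the log2(intensity + 50) scale C1qa rose by 1.11 in knockout fat (2.16-fold, SE 0.19, limma adjusted p = 0.0100) and by 1.78 in wild type fat (3.44-fold, SE 0.19, adjusted p = 0.000105). 

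C1qb, the B chain, had 3777, 4157 and 4033 units in knockout fat on high fat, against 1324, 1994 and 942 on low fat. In wild type fat it had 6933, 5828 and 5271 units on high fat, against 1318, 1714 and 869 on low fat. The order of the groups was that of C1qa, with wild type on high fat at the top, knockout on high fat next and the low fat groups, which overlapped, at the bottom. The rise was 1.52 in knockout fat (2.87-fold, SE 0.27, limma adjusted p = 0.0127) and 2.21 in wild type fat (4.62-fold, SE 0.27, adjusted p = 0.000238). C1qc, the C chain, had 2729, 3015 and 3086 units in knockout fat on high fat, against 1253, 1503 and 818 on low fat. The wild type arrays gave 5851, 4654 and 3841 units on high fat, against 983, 1354 and 556 on low fat. Its groups stood in the same order, again with no overlap between diets. It rose by 1.31 in knockout fat (2.48-fold, SE 0.30, limma adjusted p = 0.0331) and by 2.31 in wild type fat (4.97-fold, SE 0.30, adjusted p = 0.000310). C1qb and C1qc followed each other most closely of all pairs of the 7 genes tested: their log2 values, each centred on its own mean, differed by a root mean square of 0.13 over the 12 arrays, against 0.30 for C1qa with C1qb and 0.35 for C1qa with C1qc. 

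Of the genes acting after C1q, C4b was higher on high fat and C2 lay lower. C4b, which is cut by the C1 complex, had 7634, 5043 and 6088 units in knockout fat on high fat, against 2608, 5067 and 4292 on low fat. Wild type fat gave 5770.3, 7089.9 and 5959 units on high fat, against 3246, 3265 and 4157 on low fat. The diets separated in wild type fat and overlapped in knockout fat. C4b rose by 0.81 in wild type fat (1.76-fold, SE 0.23, limma adjusted p = 0.0189), while in knockout fat the difference of 0.67 did not pass the threshold (SE 0.23, adjusted p = 0.155). The wild type call was lost without replicate 2 on high fat, or without replicate 1 or 2 on low fat (limma adjusted p = 0.0623, 0.0550 and 0.0615). C4b is nearly identical to C4a, whose own probe was detected on 0 of the 12 arrays, and how far the C4b probe tells them apart is uncertain.

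C2, the protease that joins C4 in the classical pathway, had 4287, 3112 and 4095 units in knockout fat on high fat, against 4341, 5796 and 5189 on low fat. The wild type values were 2899, 3352 and 3712 units on high fat, against 4130.0, 3807 and 4390.1 on low fat. In both genotypes all high fat arrays lay below all low fat arrays, by narrow gaps. The log2 differences were -0.41 in knockout fat (SE 0.15, 95% interval -0.75 to -0.07, limma adjusted p = 0.187) and -0.31 in wild type fat (SE 0.15, interval -0.65 to 0.03, adjusted p = 0.136), so neither passed. C2 and its neighbour Cfb had opposite signs in both genotypes.

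C3, the component on which all pathways converge, was higher on the high fat diet. It had 17906, 17262 and 19119.6 units in knockout fat on high fat, against 13334, 13334 and 10201 on low fat. In wild type fat it had 21182, 18743 and 20249 units on high fat, against 9273, 10922 and 11615 on low fat. The diets did not overlap in either genotype, and the genotypes overlapped on each diet. C3 rose by 0.57 in knockout fat (1.48-fold, SE 0.13, limma adjusted p = 0.0354) and by 0.92 in wild type fat (1.89-fold, SE 0.13, adjusted p = 0.000536). 

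Cfb, the protease precursor of the alternative pathway, was also higher. It had 3488, 3329.9 and 4246 units in knockout fat on high fat, against 1666, 2446 and 2401 on low fat. Wild type fat gave 3641, 3321 and 3796 units on high fat, against 1336, 1443 and 1671 on low fat. The genotypes overlapped on high fat, and on low fat the lowest knockout array, at 1666, lay just under the highest wild type array, at 1671. Cfb rose by 0.76 in knockout fat (1.70-fold, SE 0.16, limma adjusted p = 0.0246) and by 1.25 in wild type fat (2.38-fold, SE 0.16, adjusted p = 0.000313).

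**Figure D1:**
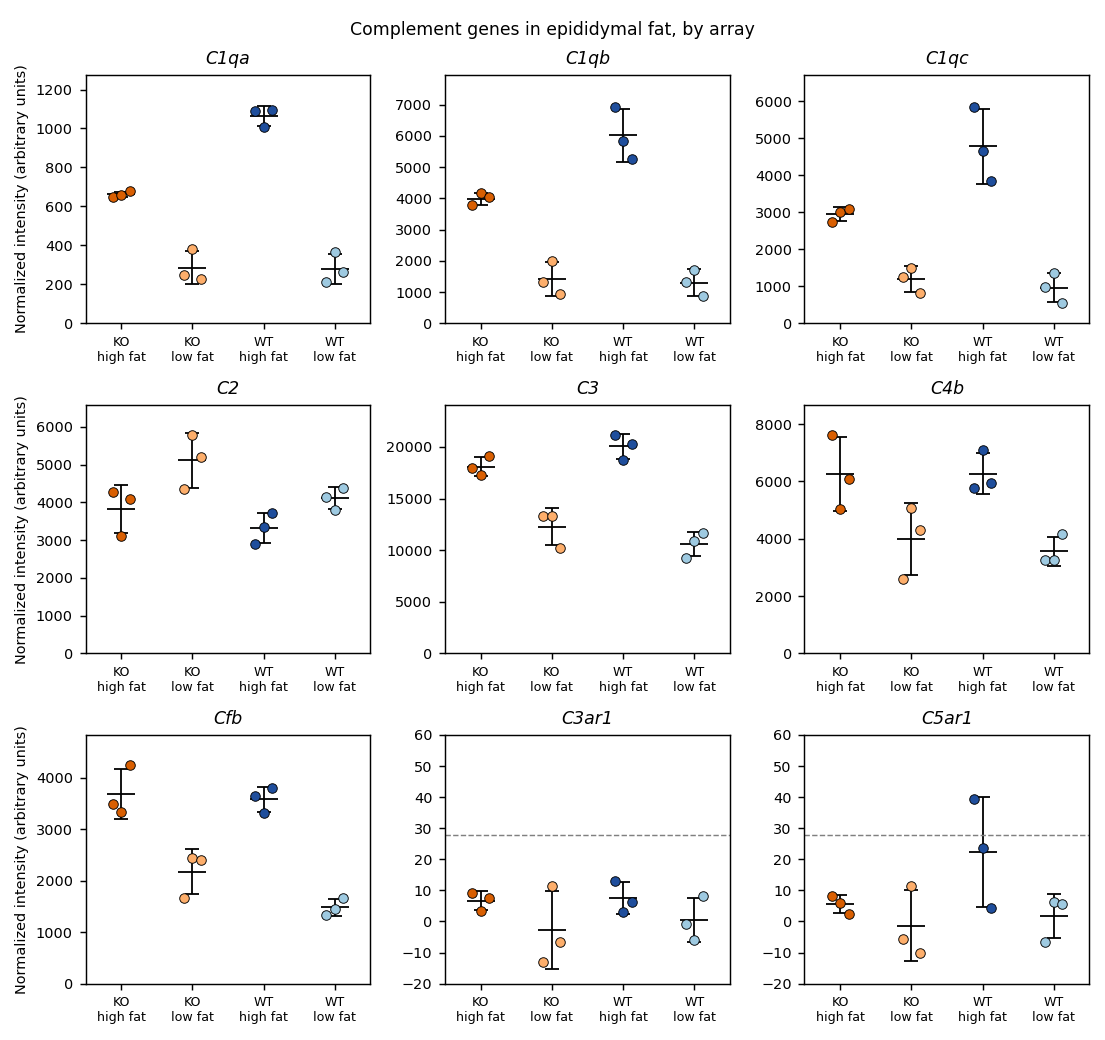
Normalized intensity (arbitrary units, linear axes) of the 9 complement genes on each of the 12 arrays, with points for arrays, a horizontal bar for the mean of 3 and error bars for the SD; the dashed line in the C3ar1 and C5ar1 panels is the approximate floor of 27.9. The C1q genes stand highest in wild type fat on high fat, Cfb and C4b reach like levels in both genotypes on high fat, and the receptors lie at or near the floor.

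The receptor genes were not measurable in this tissue at this sensitivity. C3ar1, the C3a receptor, was detected on 0 of the 12 arrays, and its intensities ran from -13.0 to 13.2, all under the floor. C5ar1, the C5a receptor, was detected on 1 of 12. It had 8.29, 5.83 and 2.46 units in knockout fat on high fat, -5.52, 11.6 and -10.2 in knockout fat on low fat, 39.4, 23.6 and 4.23 in wild type fat on high fat, and -6.54, 6.12 and 5.71 in wild type fat on low fat. Only replicate 1 of wild type fat on high fat stood above the floor. Neither gene passed the filter, which asked for a detection p under 0.05 on at least 3 arrays, so 7 of the 9 genes were tested.

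In knockout fat the high fat diet was associated with higher expression of 5 of the 7 tested genes, with 0 lower, beside 4.36% of all 11787 genes called in that comparison, 3.55% higher and 0.814% lower. In wild type fat 6 of 7 were higher and 0 lower, where 39.5% of all genes were called, 22.7% higher and 16.8% lower. The median log2 difference of the 7 was 0.76 in knockout fat and 1.25 in wild type fat, beside -0.01 and 0.06 over all genes tested. The groups did not overlap for 5 higher genes and C2 in knockout fat, where 12.2% of all genes lay higher without overlap and 9.85% lower, and for 6 higher genes and C2 in wild type fat, where the shares were 29.2% and 22.3%. The knockout count depended on single arrays: it was 2, 3 and 1 without replicate 1, 2 or 3 on high fat, and 1 and 0 without replicate 1 or 3 on low fat. It was 0 in a fit of the knockout arrays alone (limma adjusted p between 0.0524 and 0.113 for the 5 genes), and in both genotypes it was 0 with the mean of the epididymis genes as a covariate. With that covariate the log2 differences of C1qa, C1qb and C1qc were 0.97, 1.49 and 1.39 in knockout fat (limma adjusted p = 0.132, 0.124 and 0.184), beside 1.11, 1.52 and 1.31 without it. The covariate was made of the epididymis list alone, so it does not separate diet from seminal vesicle RNA.

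**Figure D2:**
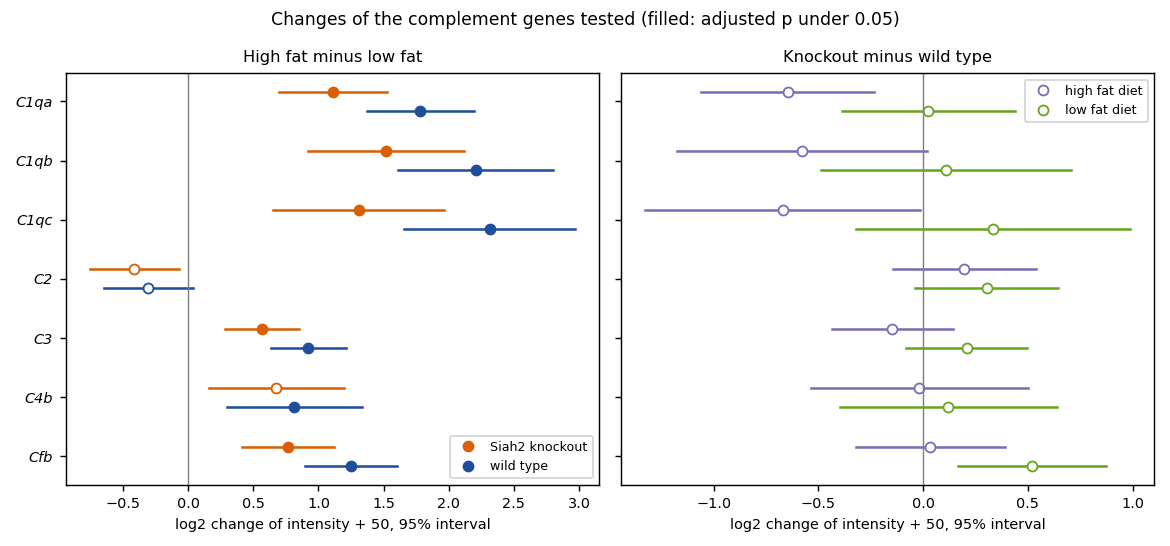
Log2 differences of intensity + 50 for the 7 complement genes tested, with points for the estimate, bars for the 95% interval and filled points for a limma adjusted p under 0.05. On the left, high fat minus low fat is above 0 for every gene but C2, with the smaller value in knockout fat each time for those genes; on the right, knockout minus wild type has no filled point.

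Comparing the genotypes on each diet asked whether loss of Siah2 went with other complement levels. On high fat, 0 of the 7 genes passed, where 0.0848% of all genes did. The C1q genes lay lower in knockout fat without overlap, as 11.8% of all genes did, and 0 of the 7 lay higher without overlap, as 6.35% did. The log2 differences were -0.65 for C1qa (1.57-fold lower, SE 0.19, 95% interval -1.06 to -0.23, limma adjusted p = 0.238), -0.58 for C1qb (SE 0.27, interval -1.17 to 0.02, adjusted p = 0.441) and -0.67 for C1qc (SE 0.30, interval -1.33 to -0.02, adjusted p = 0.425). At an unadjusted p under 0.05, C1qa and C1qc would have passed (0.00553 and 0.0454). C3 differed by -0.15 (interval -0.44 to 0.14), C4b by -0.02 (-0.54 to 0.50), Cfb by 0.03 (-0.32 to 0.39) and C2 by 0.20 (-0.14 to 0.54). 

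On low fat, 0 of the 7 passed, where 7.79% of all genes did, and the groups overlapped for all 7, whereas 19.1% of all genes lay higher and 13.9% lower without overlap. All 7 estimates lay above 0, with a median of 0.21. The largest was that of Cfb, at 0.52 (SE 0.16, 95% interval 0.17 to 0.87, limma adjusted p = 0.0703). Cfb passed in 2 of 25 alternative settings. Array weights gave 0.59 (limma adjusted p = 0.0119), and a fit without replicate 1 of knockout on low fat gave 0.70 (adjusted p = 0.0199). That array had a Siah2 level in the wild type range, and also the highest epididymis sum and the lowest Cfb value of its group. With the epididymis mean as a covariate the Cfb difference was 0.27 (adjusted p = 0.743). In the main fit of the genotypes on low fat, 4 of 11 adipocyte markers were called, all 4 higher in knockout fat, with a median of 0.58 over the list. Of 11 macrophage markers, 0 were called, with a median of 0.26. The epididymis and seminal vesicle sums were lower in knockout than in wild type fat on low fat, without overlap. Genotype and this RNA therefore cannot be told apart on low fat, for these genes or any others. The part of these cells or of this RNA in the low fat differences was not tested. The C1q genes differed by 0.02, 0.11 and 0.33 for the A, B and C chains, within their SEs of 0.19 and 0.27 for C1qa and C1qb and by little more than the SE of 0.30 for C1qc. The knockout effect averaged over both diets was called for 0 of the 7, where 2.77% of all genes were called.

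The difference between the diet effects, knockout minus wild type, was negative for all 7 genes, with a median of -0.49 beside -0.08 over all genes, and 0 of the 7 passed, where 0.102% of all genes did. It was -1.005 for C1qc (SE 0.42, 95% interval -1.93 to -0.08, limma adjusted p = 0.219), -0.69 for C1qb (SE 0.38, interval -1.53 to 0.16, adjusted p = 0.326) and -0.67 for C1qa (SE 0.26, interval -1.25 to -0.09, adjusted p = 0.199). Cfb gave -0.49 (interval -0.99 to 0.02), C3 -0.35 (-0.76 to 0.05), C4b -0.14 (-0.87 to 0.59) and C2 -0.11 (-0.59 to 0.38). At an unadjusted p under 0.05, C1qa and C1qc would have passed (0.0281 and 0.0362). For 6 of the genes the rise was smaller in knockout fat, while for C2, lower on high fat, the difference was larger there. Neither was distinguished from wild type fat after adjustment.

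Beyond these 9 genes, 47 other complement genes were listed by role, of which 41 had a probe and 29 passed the filter. Of these, 4 rose and 0 fell on high fat in knockout fat, with a median difference of 0.22, and 11 rose and 6 fell in wild type fat, with a median of 0.30. The 11 include Itgam, which stood near the floor and whose call supports nothing, as given below. Over all genes, 3.55% were called higher and 0.814% lower in knockout fat, and 22.7% higher and 16.8% lower in wild type fat, so the count that fell in wild type fat was near the background. The knockout count was 2 without replicate 3 on high fat, and both counts were 0 with the epididymis mean as a covariate. In the list of the classical and lectin start, 4 genes were tested and 0 passed in either diet comparison. Fcna (ficolin A, a lectin that starts the lectin pathway) differed by 0.94 in knockout fat (SE 0.40, limma adjusted p = 0.259) and 0.73 in wild type fat (SE 0.40, adjusted p = 0.169). C1s1, the C1s protease that cuts C4 and C2, differed by 0.28 in knockout fat (SE 0.35, adjusted p = 0.745) and 0.45 in wild type fat (SE 0.35, adjusted p = 0.330). C1ra passed as lower in knockout fat on low fat and on average over both diets, but 10 of its 12 arrays lay below the floor, so no fold is given. It was detected on 4 arrays, and its highest knockout value, 9.40, lay under its lowest wild type value, 13.9. The filter thus appears to have kept it through the genotype where it was high, and its call supports nothing.

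The alternative pathway list held factor D and properdin. Cfd (factor D) had 32238, 30527 and 30527 units in knockout fat on high fat, against 27331, 36796 and 32238 on low fat, and 20823, 27659 and 31898 in wild type fat on high fat, against 36796, 39268 and 36511 on low fat. It fell by 0.51 in wild type fat (SE 0.16, limma adjusted p = 0.0250) and differed by -0.04 in knockout fat (SE 0.16, adjusted p = 0.943). Cfd is among the brightest genes shown. Some of its values recur exactly on different arrays, but such recurrence is not particular to bright genes. The value 4157.274, for instance, is that of C1qb on a knockout array on high fat and of C4b on a wild type array on low fat. Whether differences at this brightness are compressed was not tested. Cfp, properdin, which stabilises the alternative pathway enzyme, had 5264, 4449 and 5029 units in knockout fat on high fat, against 2981, 4546 and 2965 on low fat, and 6681, 6627 and 6883 in wild type fat on high fat, against 3006, 4162 and 3265 on low fat. It rose by 0.96 in wild type fat (SE 0.17, adjusted p = 0.00194) and differed by 0.51 in knockout fat (SE 0.17, adjusted p = 0.144). On high fat in wild type fat, C3, Cfb and Cfp were thus higher and Cfd lower.

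Of 6 terminal pathway genes tested, 0 rose in either genotype, where 3.55% of all genes did in knockout fat and 22.7% in wild type fat. In wild type fat 2 fell, where 16.8% of all genes did. Hc, C8a and C9 were dim, detected on 3, 8 and 4 of the 12 arrays, so a rise in them could have been missed. C8b and C8g, subunits of the C8 protein of the membrane attack complex, fell by 0.79 and 0.51 in wild type fat (SE 0.23 and 0.17, limma adjusted p = 0.0221 and 0.0386). C6, the uncalled gene with the highest mean, differed by -0.21 in knockout fat and 0.03 in wild type fat (SE 0.17 each). 

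Of 11 inhibitors tested, 1 rose in knockout fat (3.55% of all genes did), and 5 rose and 3 fell in wild type fat (22.7% and 16.8% of all genes did). Serping1, the C1 inhibitor, had 10154, 8747 and 10407 units in knockout fat on high fat, against 5811, 6218 and 4726 on low fat. In wild type fat it had 9977, 9757 and 10570.4 units on high fat, against 4494, 5786 and 4768 on low fat. The genotypes overlapped on each diet, and Serping1 rose by 0.81 in knockout fat (SE 0.13, limma adjusted p = 0.00952) and by 1.01 in wild type fat (SE 0.13, adjusted p = 0.000380). Of the membrane-bound inhibitors tested, 3 rose in wild type fat: Cd55, which dissociates the C3-cutting enzymes, by 1.32 (SE 0.23, adjusted p = 0.00161), and Cd59a and Cd59b, which block the membrane attack complex, by 1.05 and 0.88 (adjusted p = 0.00179 and 0.00137). In knockout fat their differences were 0.42, 0.32 and 0.23 (adjusted p between 0.399 and 0.491). On low fat, Cd55 and Cd59b were higher in knockout than in wild type fat, by 0.94 and 0.73 (adjusted p = 0.0395 and 0.0255), as were some adipocyte markers. Vtn (vitronectin, which also restrains the terminal complex) rose by 0.69 in wild type fat (SE 0.24, adjusted p = 0.0421). Cr1l (Crry in the files), a rodent membrane inhibitor, differed by 0.35 in knockout fat and 0.30 in wild type fat (SE 0.21 each, adjusted p = 0.439 and 0.267). 

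The 3 inhibitors that fell on high fat in wild type fat did so where the epididymis sums were lower too, and the part of epididymal RNA in this was not tested. C4bp, which binds C4b, had -5.66, 3324 and -4.75 units in knockout fat on high fat, 4542, 364 and 6893 in knockout fat on low fat, 14.7, 43.1 and 3.24 in wild type fat on high fat, and 13275, 7537 and 7715 in wild type fat on low fat. Its high arrays were those with high epididymis sums. Susd4 and Cpn1 (a subunit of carboxypeptidase N, which trims C3a and C5a) were below the floor on all 3 wild type arrays on high fat, at least 27.6-fold and at least 2.76-fold lower than on low fat (limma adjusted p = 0.00105 and 0.0146). Such bounds set the dim arrays at the floor.

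Of 6 other receptor genes tested, 3 rose in knockout fat (3.55% of all genes did) and 5 in wild type fat (22.7% did), and 0 fell. Itgax and Itgb2, the chains of complement receptor 4, rose in both: Itgax had 87.4, 122 and 154 units in knockout fat on high fat, against 11.8, 28.4 and 6.63 on low fat, where 1 of 3 arrays was above the floor (log2 difference 1.38, limma adjusted p = 0.00851), and 356, 165 and 234 in wild type fat on high fat, against 7.39, 10.2 and 11.1 on low fat, at least 8.60-fold higher (adjusted p = 6.84e-05). Itgb2 was at least 14.0-fold higher on high fat in wild type fat (adjusted p = 1.25e-05) and rose by 1.503 in knockout fat (SE 0.18, adjusted p = 0.00328). Vsig4, the complement receptor of resident macrophages, had 228, 222 and 246 units in knockout fat on high fat, against 54.9, 67.8 and 61.7 on low fat. The wild type arrays gave 239, 243 and 109 units on high fat, against 33.6, 107 and 59.7 on low fat. Its rise was 1.34 in knockout fat (SE 0.25, adjusted p = 0.0159) and 1.08 in wild type fat (SE 0.25, adjusted p = 0.00727). Cd93, once proposed as a C1q receptor, rose by 1.35 in wild type fat (SE 0.17, adjusted p = 0.000264), differed by 0.60 in knockout fat (SE 0.17, adjusted p = 0.0747), and was 0.69 higher in knockout than in wild type fat on low fat (adjusted p = 0.0395). Itgam, the partner of Itgb2 in complement receptor 3, is among the 5 called in wild type fat but stood near the floor, at 28.5, 43.6 and 25.2 units on high fat, against -3.61, 4.25 and 11.8 on low fat. It was detected on 3 of the 12 arrays and lay above the floor on 2, both of wild type fat on high fat, so the filter kept it through the group where it was high and its call supports nothing. C1qbp, a mitochondrial protein that binds C1q, differed by 0.12 and 0.16 in knockout and wild type fat (SE 0.20 each).

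**Figure D3:**
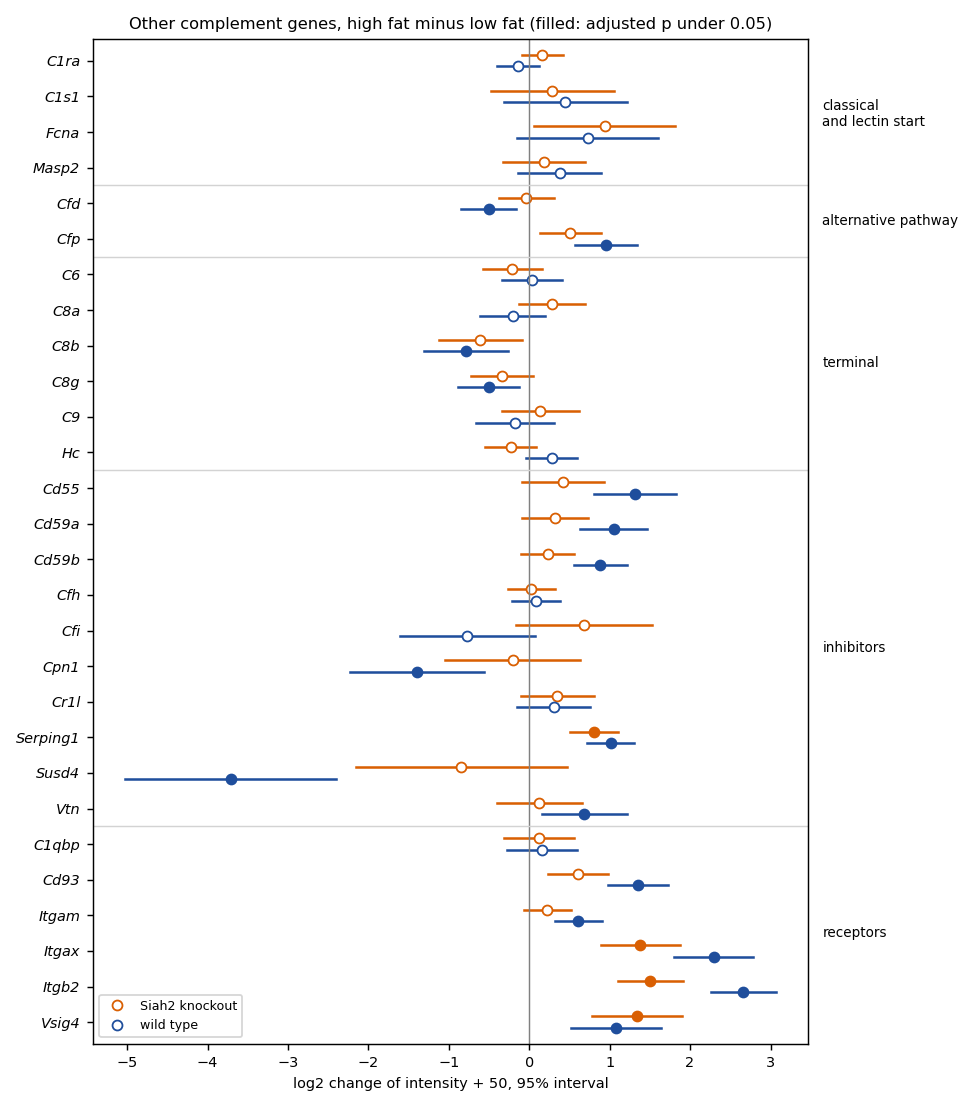
Log2 differences of intensity + 50, high fat minus low fat, for 28 of the 29 other complement genes tested, by role, with 95% intervals and filled points for a limma adjusted p under 0.05. C4bp, at -7.07 in wild type fat, is left off the axis, and points of genes below the floor on one diet understate the difference. Itgax, Itgb2, Vsig4 and Serping1 are filled in both genotypes.

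Most macrophage markers moved with the C1q genes, and so, over a smaller range, did the mean log2 value of the fibroblast list. Centred over the arrays, the fibroblast mean was 0.10 to 0.33 in knockout fat on high fat and -0.33 to -0.04 on low fat. In wild type fat it was 0.29 to 0.50 on high fat and -0.50 to -0.19 on low fat. Of 11 macrophage markers that passed the filter, 8 rose on high fat in knockout fat, where 3.55% of all genes did. Their differences had a median of 1.43 over the list and ran from -0.06 to 2.69. In wild type fat 10 rose, where 22.7% of all genes did, with a median of 2.29 and a range of 0.30 to 3.74. The 11 markers summed to between 38209 and 46550 units in knockout fat on high fat, 13475 and 23572 in knockout fat on low fat, 49095 and 68862 in wild type fat on high fat, and 11833 and 17293 in wild type fat on low fat. On high fat all 11 had a lower mean in knockout than in wild type fat, with a median of -0.34 and a range of -1.09 to -0.13, and 0 passed. Adgre1, which encodes the F4/80 antigen, differed there by -0.34 and Laptm5 by -0.52. The share of the C1q differences that goes with macrophage or fibroblast content was not tested. 

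The other lists are read against the same shares of all genes, 3.55% higher and 0.814% lower in knockout fat and 22.7% higher and 16.8% lower in wild type fat. Of 10 fibroblast markers, 2 rose in knockout fat, and 8 rose and 1 fell in wild type fat. Of 8 endothelial markers, 0 passed in knockout fat and 4 rose in wild type fat. Of 11 adipocyte markers, 0 passed in knockout fat and 3 rose in wild type fat, near the share of all genes. Of 9 mesothelial markers 5 fell in wild type fat, and the list's sums were 4359 to 6074 in knockout fat on high fat, 3168 to 9915 in knockout fat on low fat, 1926 to 2757 in wild type fat on high fat and 10643 to 13355 in wild type fat on low fat. Several of these markers, such as Krt8, are keratins of any epithelium. Of 4 neutrophil markers and 6 lymphocyte markers tested, 2 and 1 rose in wild type fat and 0 passed in knockout fat, counts too small to set against these shares. Of 13 skeletal muscle markers, 0 passed in knockout fat and 4 fell in wild type fat. Of 4 hepatocyte markers that passed the filter, 0 were called on either diet comparison, and albumin (Alb) was not among them. Replicate 1 of knockout on low fat stood apart in muscle, with a mean log2 value of 9.62 against 7.39 and 7.45 in its group. The part of these cells in the complement values was not tested.

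**Figure D4:**
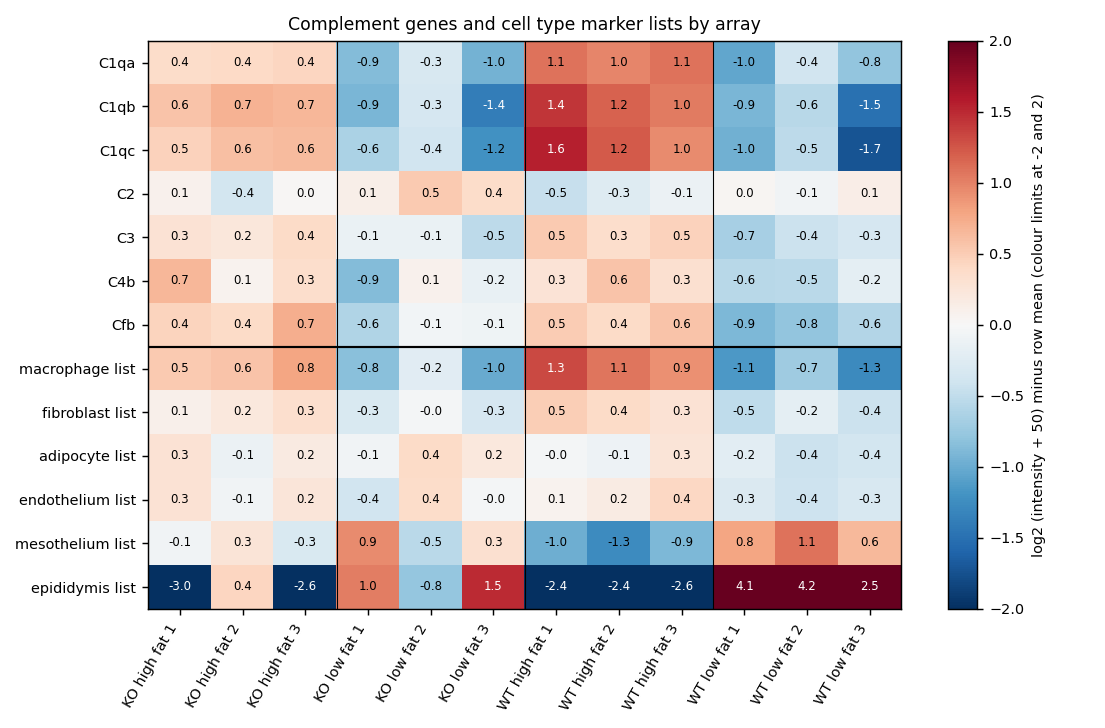
Log2(intensity + 50) minus the row mean on each of the 12 arrays (columns) for the 7 complement genes tested and, below the line, for the mean of 6 cell type marker lists; colours stop at -2 and 2 and the printed values do not. C1qb and C1qc share their highest and lowest arrays with the macrophage list. C1qa is highest and lowest in the same groups but on other arrays, and C2 does not follow the C1q genes.

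In both low fat groups replicate 2 had the highest value of each C1q gene and the highest macrophage sum, and in knockout fat on low fat its C1q values were 382 for C1qa, 1994 for C1qb and 1503 for C1qc. That knockout array also had the lowest epididymis sum of its group, 6296, and the highest adipocyte and endothelial sums, 153091 and 18269. Replicate 2 of wild type fat on low fat had the lowest adipocyte and endothelial sums of its group, 103132 and 9741. The part of these in the C1q values was not tested. C4b and Cfb were also highest on replicate 2 in knockout fat on low fat, where C3 was equal on replicates 1 and 2. In wild type fat on low fat, replicate 3 was highest for C3, C4b and Cfb. That array stood apart in the hepatocyte list, which summed to 5466 units there, against 43.8 and 447 on the other arrays of its group, and albumin stood at 65.2 units. Its seminal vesicle sum was also the lowest of its group, 57167 against 199224 and 204714, as was its epididymis sum, 101297 against 169369 and 168450. The part of these in its C3, C4b and Cfb values was not tested. Without this array, the diet differences in wild type fat were 0.99 for C3, 0.93 for C4b and 1.34 for Cfb (limma adjusted p = 0.00131, 0.0238 and 0.000858), slightly above those with it.

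Among 11780 other genes, those whose centred log2 values lay nearest to each complement gene over the 12 arrays were named by the root mean square difference. For C1qa they were LOC641240 (0.12), Coro1a, an actin-binding protein of white blood cells (0.15), and Cd74, the invariant chain of class II antigen presentation (0.16). For C1qb they were H2-DMb1, which loads class II molecules (0.17), Fcer1g, the Fc receptor gamma chain and one of the macrophage markers (0.18), and Ctsa, a lysosomal protease (0.19). For C1qc they were Ctsa (0.19), Ly86 (0.21) and Kcnk13, a potassium channel (0.21). The nearest genes of the C1q chains thus included a macrophage marker and genes of class II antigen presentation. For C2 they were Ces3, a carboxylesterase (0.084), Slc22a18 (0.091) and Pygb, a glycogen phosphorylase (0.10). For C3 they were Spry3 (0.11), the heat shock gene Hsp105 (0.11) and Arl6ip5 (0.12), and for C4b Psen2, Paqr7 (both 0.15) and 1200009O22Rik (0.16). For Cfb they were Col4a1, a basement membrane collagen (0.087), Dusp10 (0.11) and Cd93 (0.12). C3 and Cfb differed by 0.27, C4b and Cfb by 0.27, and C3 and C4b by 0.30.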

How the data were processed

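Total RNA of epididymal fat was labelled and hybridised to an Illumina bead array, per the labels' protocols. The values compared are the authors' deposited normalized intensities, made with GenomeStudio per the submitters' processing notes, whose version and settings are not given in the sources used here. They had a background subtracted (22.9% of values below 0, lowest -27.5) and were brought to like distributions (array medians 33.3 to 33.6). A further table of deposited detection p-values and raw intensities (medians 120.4 to 212.4) carries array codes that no label ties to a sample, so it gave only gene names and the number of detecting arrays. In it, 20 signal columns of no sample of the series were not used.

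Values were taken as log2(intensity + 50), which understates changes of dim genes. Probes with a detection p under 0.05 on at least 3 of 12 arrays were kept (15765), each gene being read by the brightest of its kept probes (11787 genes). The floor of 27.9 is the intensity exceeded by 52.1% of the values pooled over all 12 arrays. That share is the share of probes that the least sensitive array detected. The floor is thus approximate, and a probe can be detected on an array while below it. limma 3.58.1 in R 4.3.3 fitted 1 mean per group to all 12 arrays (8 residual degrees of freedom), with 6 two-sided contrasts, each adjusted by Benjamini and Hochberg over all genes, threshold 0.05. The step was tested on simulated data. The number of arrays limits the precision: 3 against 3 allows no exact p under 0.1. The genes and lists were chosen with earlier results of these data known. Genes named are the 9, Siah2, other complement genes that were called and up to 2 uncalled per list with the highest mean, the 3 nearest genes of each, and up to 4 markers per list with the highest mean, beside Alb and list members singled out after their values were seen. Some symbols in the files are older names. Alternatives were offsets 30 and 100, filters, normalizations, probe averaging, array weights, a trend, a replicate block, an epididymis covariate and leaving out arrays.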

Additional observations from a re-analysis of the deposited data

Results flagged for a closer look

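Itgb2, the beta chain of complement receptors 3 and 4, was singled out because its arrays lay apart in opposite directions on the diets. On high fat it had 186, 225 and 286 units in knockout fat, against 523, 307 and 369 in wild type fat, while on low fat it had 41.6, 64.2 and 41.5 units in knockout fat, against 17.4, 23.1 and 18.9, all below the floor, in wild type fat. The difference between its diet effects, knockout minus wild type, was -1.16 on the log2 scale and did not pass (SE 0.26, limma adjusted p = 0.108). The epithelial keratins Krt8 and Krt19, from the mesothelial list, lay apart the other way, higher in knockout fat on high fat and lower on low fat, with differences of 3.71 and 2.17 between the diet effects that did not pass (limma adjusted p = 0.151 and 0.107). Pdgfra, from the fibroblast list, lay higher on high fat in knockout fat and lower in wild type fat, each without overlap, and its difference of 0.38 did not pass (limma adjusted p = 0.206). The seminal vesicle genes Svs1, Svs3b, Svs4 and Svs5 were singled out because the difference between their diet effects passed, at 4.89, 5.74, 3.32 and 4.02 (limma adjusted p = 0.0203, 0.0243, 0.00152 and 0.00149). They were far dimmer on high fat than on low fat in both genotypes, with at most 1 of the 6 high fat arrays of each above the floor, so these sizes depend on the offset of 50.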

How the results depend on the processing

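The 6 calls of complement genes in wild type fat on high fat became 7 with cyclic loess, where C2 passed as lower (limma adjusted p = 0.0408), and 0 with the epididymis mean as a covariate, where C1qa, C1qb and C1qc had log2 differences of 1.39, 2.14 and 2.53, C3 and Cfb of 0.52 and 0.75, C2 of -1.07, and C4b reversed to -0.23 (adjusted p = 0.974); the cause was not tested, and only 4 genes of all were called with that covariate. Leaving out 1 array gave 5 to 6 calls. The 5 calls in knockout fat became 0 with the covariate, 0 in a fit of the knockout arrays alone (fewer samples), 6 without replicate 2 of both knockout groups, and 0 to 5 with 1 array left out. The knockout effect on low fat gained 1 call with array weights (Cfb) and 0 to 1 with 1 array left out, and the averaged knockout effect gained 1 with array weights (C1qa, log2 difference -0.46, adjusted p = 0.0384). For the other complement genes, the 17 calls in wild type fat, that of Itgam included, became 11 with probes detected on all 12 arrays (17 genes tested) and 0 with the covariate, with 13 to 17 when 1 array was left out. Their 4 calls in knockout fat became 2 with that filter, 7 with array weights, 8 without replicate 2 of both knockout groups and 0 with the covariate, with 2 to 6 when 1 array was left out. For arrays sharing a replicate number, deviations from the group means had correlations of -0.81 to 0.16 over 18 pairs, across genes. The main fit used no pairing, and correlations of deviations from means of 3 arrays cannot exclude one. With the replicate block 4 complement genes were called in knockout fat, C3 being lost (limma adjusted p = 0.0905). Changing the offset, probe averaging and the trend moved no count by more than 1.5 times. Nor did quantile normalization, but the deposited values already had like distributions, so it could change little. With it 4654 genes of all were called for the diet in wild type fat, against 4652 in the main fit. Signal over background limits C3ar1 and C5ar1, whose levels could not be compared.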
